A study of Mus musculus with 80 samples.

Results

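Described here are 10 genes of the cellular stress response in mouse liver. They are the hormone genes Gdf15 and Fgf21, the transcription factor genes Atf4, Atf3 and Ddit3, the ATF4 target genes Asns, Trib3 and Chac1, and the endoplasmic reticulum (ER) genes Hspa5 and Herpud1. They were chosen by name, and all 10 were found among the 18138 entries of the expression table. The mice were male B6C3F1 mice, a hybrid laboratory strain. Ethinyl estradiol (EE2), a synthetic estrogen, was mixed into the feed for 7 d at 4 levels (1 ppm, 2.5 ppm, 5 ppm and 10 ppm) and for 28 d at the highest of them. Prednisone (PRED), a glucocorticoid prodrug, was mixed in likewise at 1.25 ppm, 2.5 ppm, 5 ppm and 25 ppm for 7 d, and at the last level for 28 d. Androstenedione (A4), an androgen precursor, was given by gavage at 2, 10, 20 or 50 mg/kg/day for 7 d and at 50 mg/kg/day for 28 d. Each of these 15 treated groups had 4 arrays. Feed controls had 6 arrays at 7 d and 6 at 28 d, and gavage controls, which received carboxymethyl cellulose alone, had 4 at each time. No genotype other than the strain was given, and the age of the mice was not given.

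The integrated stress response begins with kinases that phosphorylate the initiation factor eIF2 when amino acids are short or proteins misfold in the ER. General translation then slows while the mRNA of the transcription factor ATF4 is translated more. ATF4 switches on genes for amino acid supply and for feedback, among them Asns, Trib3, Chac1 and Ddit3. In the ER branch, the sensors ATF6 and IRE1 raise chaperones and degradation factors such as Hspa5 and Herpud1. GDF15 and FGF21 are circulating hormones that stressed tissues secrete, and the liver is a main source of FGF21. Because ATF4 is controlled mainly through translation, the level of its mRNA does not report its activity.

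Levels are given as the deposited normalized intensities of Illumina bead arrays, 1 value per gene and array, and levels of different genes were not set against each other. Array medians lay between 105.7 and 106.4, so an intensity near that value was about background. The median over all genes tested moved by less than 0.01 on the log2 scale in each of the 15 treated groups. The labels do not say whether each array was a separate animal, so the p-values rest on a spread between arrays that may be only technical. A sample number in the column names recurred for 9 numbers on 19 arrays. Among them were 2 of 4 arrays with EE2 at 28 d, 2 of 4 with PRED at 25 ppm for 7 d and 2 of 4 for 28 d. Others were 2 of 6 feed controls at 7 d and 3 of 6 at 28 d. Besides these, 1 feed control at 7 d and 1 at 28 d shared a number with each other. What the number means is not given, so n counts arrays and may exceed the number of animals. With the number as a random block (correlation 0.3784), and also with arrays of 1 number averaged, 21 of the 22 calls against a control below were kept and that of Atf4 was lost. Of 10 hepatocyte markers, the summed intensity had a median of 62380 with EE2 at 10 ppm for 7 d and 69030 in feed controls, and the tyrosine aminotransferase entry Tat was detected on no 7 d feed control array. In bulk tissue, fewer cells of a type and less RNA per cell cannot be told apart. The array's detection p-value did not always follow the signal. Asns, for example, was called detected on 33 of 80 arrays, and an array with an intensity of 355.6 was called undetected.

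Short promoter stretches are shown first because they carry the sequence by which these genes are usually grouped. A window from 250 bases before to 50 bases after each RefSeq gene start (GRCm38.p6) was available for all 10 genes, with 2 windows for Gdf15. The windows were searched on both strands for the C/EBP-ATF response element (CARE, TGATGNAAN), which ATF4 dimers bind, and for the ER stress elements ERSE (CCAAT, any 9 bases, then CCACG) and ERSE-II (ATTGG, any base, then CCACG). None of the matches found overlapped another. A CARE match lay in the windows of 6 genes, namely Fgf21, Asns, Trib3, Atf3, Chac1 and Herpud1, and in 3.95% of all 32851 windows. The match is in capitals with 8 bases on either side, read 5′ to 3′ on the gene's strand:
Fgf21 at chr7:45615622-45615630: acccccccATTGCATCAtccgtcca
Asns at chr6:7693224-7693232: cagccacaTGATGAAACttcccgca
Trib3 at chr2:152344039-152344047: agctcaggTTTACATCAgccgggcg
Atf3 at chr1:191183436-191183444: ttctcgcaCTTGCATCAccaagtcc
Chac1 at chr2:119351048-119351056: tccctgccGTTGCATCActcctgcc
Herpud1 at chr8:94386316-94386324: cacggcggGTTGCATCAgcccgcac
The match stood on the gene's own strand in Asns and on the opposite strand in the other 5 genes. In Trib3 it lay 13 bases after the start, and in the others between 23 and 194 bases before it.

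The ER elements were found in both ER genes. ERSE was in the window of Hspa5 and in 0.119% of all windows, and ERSE-II was in that of Herpud1 and in 0.0365% of them:
Hspa5 at chr2:34772025-34772043: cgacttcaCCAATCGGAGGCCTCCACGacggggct
Herpud1 at chr8:94386377-94386387: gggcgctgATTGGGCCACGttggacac
The whole Herpud1 window (plus strand, chr8:94386179-94386478) is printed because it was the only one of the 10 genes' windows with matches to 2 of these motifs, both in capitals:
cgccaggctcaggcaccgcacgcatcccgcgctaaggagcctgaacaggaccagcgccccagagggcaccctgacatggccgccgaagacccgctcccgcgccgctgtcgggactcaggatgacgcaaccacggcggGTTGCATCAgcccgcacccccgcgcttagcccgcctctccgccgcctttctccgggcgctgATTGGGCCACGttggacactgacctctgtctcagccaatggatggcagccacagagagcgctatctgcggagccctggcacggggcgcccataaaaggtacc
No match to any of these letters lay in the windows of Gdf15, Ddit3 or Atf4. The first Gdf15 window (minus strand, chr8:70632407-70632706), which holds the promoter of the gene with the largest change of the 10, is printed with no capitals for that reason:
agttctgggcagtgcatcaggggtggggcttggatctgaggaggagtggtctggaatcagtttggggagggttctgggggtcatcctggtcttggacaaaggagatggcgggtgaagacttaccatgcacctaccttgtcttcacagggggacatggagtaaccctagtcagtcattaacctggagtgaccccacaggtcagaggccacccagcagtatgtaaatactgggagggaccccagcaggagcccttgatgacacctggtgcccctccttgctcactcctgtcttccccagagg
A match is a description of letters, and whether a factor binds there was not measured.

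With EE2, some of the 10 genes rose at every dose and none fell. Gdf15, Trib3, Atf3 and Herpud1 rose at 1 and at 2.5 ppm, the same 4 and Asns at 5 ppm, and Gdf15, Trib3, Atf3 and Atf4 at 10 ppm. At 28 d the risers were Gdf15, Asns, Chac1 and Atf3. These are 4, 4, 5, 4 and 4 of 10 genes at an adjusted p under 0.05 (limma, Benjamini-Hochberg over 11352 genes). Over all genes tested, 6.29% rose and 7.06% fell at 1 ppm, 7.58% and 7.02% at 2.5 ppm, 12.8% and 11.6% at 5 ppm, 18.1% and 15.2% at 10 ppm. At 28 d 14.8% rose and 13.8% fell. The median log2 change of the 10 genes was 0.27, 0.22, 0.43 and 0.48 at the 4 doses and 0.28 at 28 d. With PRED, the median was 0.03, 0.11, 0.04 and 0.25 at 1.25, 2.5, 5 and 25 ppm for 7 d, and 0.11 at 28 d. A median shift of this size was thus not particular to EE2. The 4 doses share 1 feed control, so they are not independent comparisons.

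With PRED, limma called none of the 10 genes at any 7 d dose, and at 28 d Asns alone rose. At 7 d, 0, 0, 1 and 1 of the 10 had an unadjusted p under 0.05 at 1.25, 2.5, 5 and 25 ppm. The share of all genes at that looser threshold is not given. At an adjusted p under 0.05, 0.0264%, 0.0%, 0.317% and 3.29% of all genes rose. The shares that fell were 0.0%, 0.0%, 0.282% and 2.72%. At 28 d 4.64% of all genes rose and 5.25% fell. With A4, limma called none of the 10 genes in any of 5 comparisons, none had an unadjusted p under 0.05, and 0.0% of all genes were called in each. The grid of log2 changes shows that the EE2 columns hold 21 of the 22 calls.

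**Figure D1:**
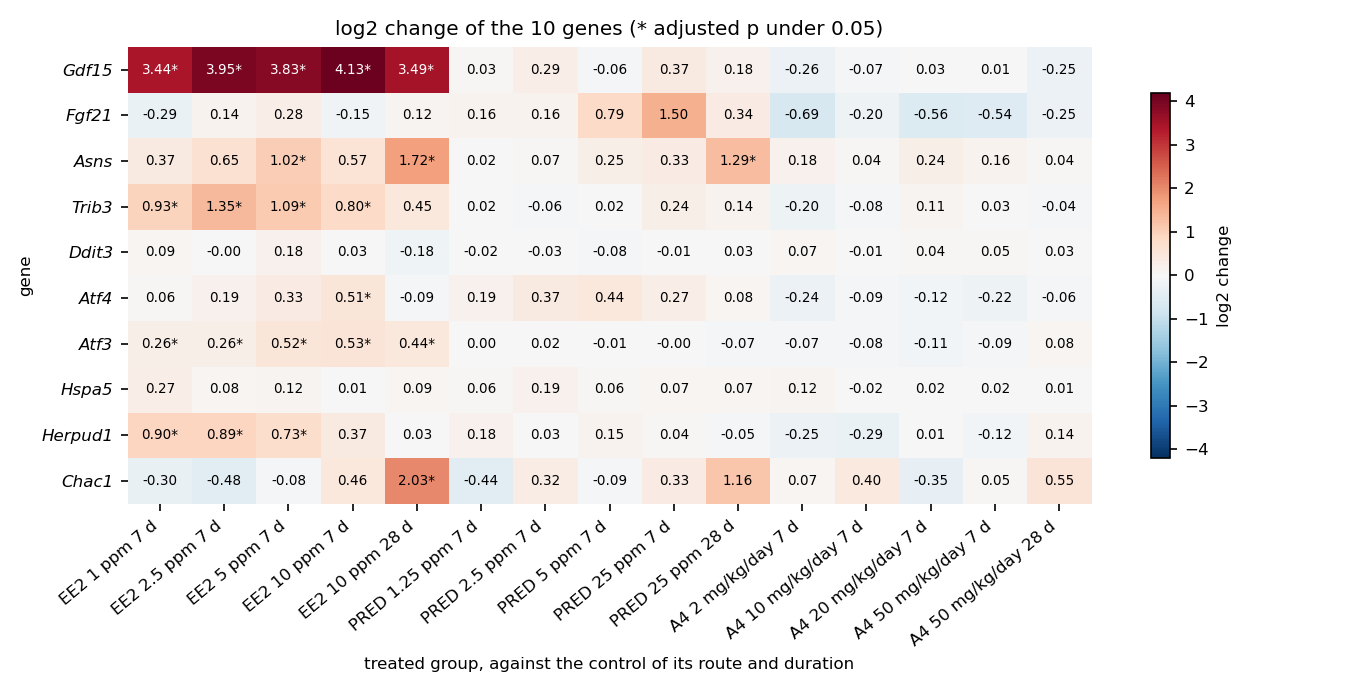
Log2 change of each of the 10 genes (rows) in each treated group against the control of its route and duration (columns), red for higher and blue for lower in the treated group. An asterisk marks an adjusted p under 0.05. The EE2 columns hold the asterisks apart from Asns with PRED at 28 d (1.29), and Gdf15 is above 3.4 in all 5 EE2 columns.

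Gdf15 (chromosome 8, 70629393 to 70632470) encodes a hormone of the TGF-beta superfamily that reduces food intake through the brain receptor GFRAL. Its intensity was 2319, 2016, 2175 and 1492 on the 4 arrays with EE2 at 1 ppm, 1426, 3443, 3034 and 4210 at 2.5 ppm, 4219, 1654, 1789 and 3619 at 5 ppm. The top dose of 10 ppm gave 2206, 4429, 4029 and 2600. The 6 feed control arrays at 7 d had a lowest value of 129.9, a median of 175.5 and a highest of 183.8. All 16 EE2 arrays were thus far above all 6 controls, and the 4 doses overlapped one another. The log2 change was 3.44 at 1 ppm, 3.95 at 2.5 ppm, 3.83 at 5 ppm and 4.13 at 10 ppm (SE 0.28 each), with adjusted p-values of 4.01e-15, 9.87e-18, 3.13e-17 and 1.21e-18. On the scale of intensity plus 16 these are folds of 10.9, 15.5, 14.3 and 17.5. Most of the rise was already there at the lowest dose, and the difference between 10 and 1 ppm, 0.68 (95% interval 0.08 to 1.29), did not pass the test (adjusted p = 0.143).

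The rise was also present after the longer exposure. With EE2 at 10 ppm for 28 d, Gdf15 had intensities of 2098, 2284, 2307 and 3196, against 125.5, 188.7 and 377.4 as the lowest, median and highest of 6 feed controls at 28 d. The groups did not overlap, and the log2 change was 3.49 (SE 0.28, adjusted p = 2.23e-16). Its difference from the 7 d change was -0.63 (SE 0.39, adjusted p = 0.448). With PRED at 25 ppm the arrays had 175.4, 292.3, 145.0 and 309.0 at 7 d, a change of 0.37 (SE 0.28, adjusted p = 0.495) with arrays among and above the controls. The 95% interval of the 5 A4 changes reached no higher than 0.64. The 5 EE2 groups held the 5 highest group means of the 19, and the other 14 lay between 166.3 and 238.0.

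The rise was also seen within a chip. For each dose 2 chips, not the same pair for every dose, held both EE2 arrays and feed controls, and on them the log2 difference was 2.97 to 3.55 at 1 ppm, 3.31 to 4.18 at 2.5 ppm, 3.12 to 4.47 at 5 ppm and 3.62 to 4.54 at 10 ppm. At 28 d it was 3.63 to 3.90.

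**Figure D2:**
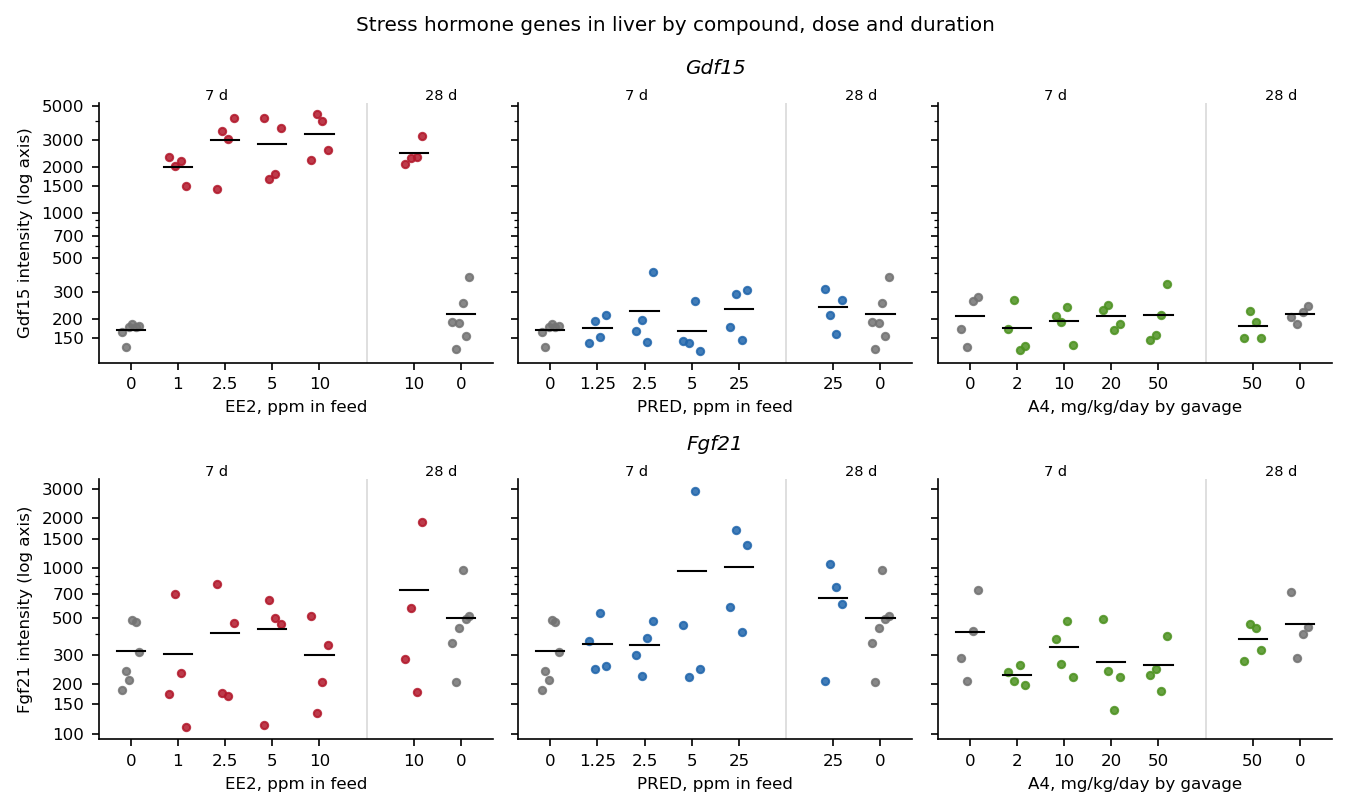
Intensity on a log axis of Gdf15 (top) and Fgf21 (bottom) on every array, by dose of EE2, PRED or A4 at 7 d and at the top dose and control at 28 d. Points are arrays, bars group means, and grey points controls. Gdf15 lies between 1426 and 4429 on every EE2 array and at or below 403.7 on all others, whereas Fgf21 varies widely inside most groups.

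Genes near Gdf15 on chromosome 8 rose with EE2 too, an observation made after their values were seen. Within 100 kb on either side the reference lists 16 genes, of which 9 besides Gdf15 were tested. Of these 9, 4 rose at 1 ppm (6.29% of all genes did), 5 at 2.5 ppm (7.58%), 5 at 5 ppm (12.8%), 6 at 10 ppm (18.1%) and 6 at 28 d (14.8%), and none fell at an adjusted p under 0.05. Isyna1, which makes inositol phosphate from phosphorylated glucose and lies 32.1 kb away, had 12410 ± 3973 (SD, n = 4) with EE2 at 10 ppm for 7 d, and 234.7 ± 169.4 (SD, n = 6) in feed controls. Its log2 change was 5.76 (SE 0.55, adjusted p = 6.32e-13). The elongation factor gene Ell had 1360 ± 81.4 (SD, n = 4) with EE2 and 593.2 ± 51.9 (SD, n = 6) in feed controls, a change of 1.18 (SE 0.14, adjusted p = 1.57e-09). Ell also rose with PRED at 25 ppm for 7 d, by 0.58 (SE 0.14, adjusted p = 0.00695). Neither Gdf15 nor the other tested neighbours passed the test there. Pgpep1, a pyroglutamyl peptidase gene on the other side of Gdf15, rose by 0.90 (SE 0.12, adjusted p = 2.03e-08). Lsm4, Jund and Pde4c, on the far side of Pgpep1, did not pass the test at 10 ppm and 7 d, with changes of 0.01, 0.22 and 0.07. At 28 d Jund rose by 0.55 (SE 0.17, adjusted p = 0.00945), and Lsm4 and Pde4c did not pass. No source used here names the genome build of the array's annotation, so positions are those of the reference genes of the same symbols.

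**Figure D3:**
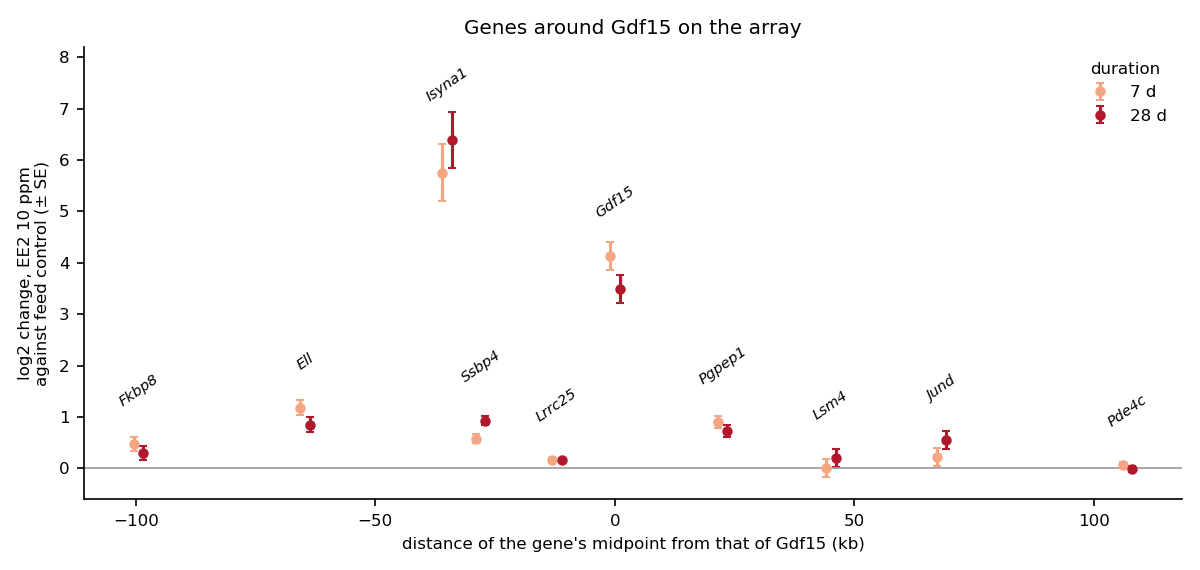
Log2 change with EE2 at 10 ppm against feed control, with SE, for Gdf15 and its 9 tested neighbours, placed by the distance in kb of each gene's midpoint from that of Gdf15. Pale points are 7 d and dark points 28 d. Isyna1 (5.76 at 7 d) and Gdf15 (4.13) stand above the others, and the 3 genes at the right, Lsm4, Jund and Pde4c, lie between 0.01 and 0.22 at 7 d, and Jund is at 0.55 at 28 d.

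The 3 tested genes whose 19 group means followed those of Gdf15 most closely were Col16a1, Cdkn1c and Pgpep1, with Pearson r of 0.991, 0.991 and 0.985 on the log2 scale. Col16a1, a collagen chain gene, had 1247 ± 301.5 (SD, n = 4) with EE2 at 10 ppm for 7 d and 128.1 ± 10.6 (SD, n = 6) in feed controls. Cdkn1c, which encodes the cyclin-dependent kinase inhibitor p57, had 738.4 ± 289.6 with EE2 and 175.1 ± 13.4 in feed controls. The likeness rests mostly on the step between the 5 EE2 groups and the other 14.

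Fgf21 (chromosome 7, 45613890 to 45615490) encodes a hormone that raises fatty acid oxidation and ketone production in fasting. It did not pass the test in any of the 15 comparisons with a control. The highest group mean was that of PRED at 25 ppm for 7 d, where the 4 arrays had 579.4, 1688, 413.5 and 1384. The 6 feed controls at 7 d had a lowest value of 182.5, a median of 276.6 and a highest of 486.3. Of the PRED arrays 3 were above every control and 1 was among them. The log2 change was 1.501 (SE 0.54, 95% interval 0.42 to 2.58) with an adjusted p of 0.0843, and with the chip as a fixed block the adjusted p was 0.049. The arrays of 1688 and 1384 carry the same sample number, and with arrays of 1 number averaged the change was 1.21 (adjusted p = 0.372). At PRED 5 ppm the arrays had 452.9, 220.8, 2925 and 246.9, so that 1 array held the second highest group mean. The change per PRED dose step, 0.36 (SE 0.12), missed the threshold (adjusted p = 0.0555) and passed it under 4 of 12 other settings, given below. It also passed without any 1 of 7 arrays (PRED 1.25 ppm replicate 3, PRED 5 ppm replicate 2 or 4, PRED 25 ppm replicate 1 or 3, feed control replicate 4 or 5; adjusted p between 0.0337 and 0.0475). In that trend limma called none of the 10 genes, beside 4.08% of all genes that rose and 3.23% that fell. At an unadjusted p under 0.05 there was 1 of the 10, and the share of all genes at that threshold is not given.

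With EE2, Fgf21 showed no common direction. At 10 ppm for 7 d the arrays had 511.4, 132.9, 205.1 and 342.5, with 1 array below and 1 above the control range. At 28 d they had 282.9, 571.2, 178.2 and 1906, with 1 array below and 1 above the 6 feed controls, which ran from 205.4 through a median of 465.5 to 976.2. The changes were -0.15 and 0.12, with 95% intervals of -1.23 to 0.92 and -0.95 to 1.20. The genes most like Fgf21 over the group means were Mttp, which loads lipid on lipoproteins, Slc45a3 and B4galt3 (r of 0.852, 0.846 and 0.845). Mttp had 693.6 ± 73.9 (SD, n = 4) with PRED at 25 ppm for 7 d and 439.2 ± 31.1 (SD, n = 6) in feed controls.

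Atf4 (chromosome 15, 80255184 to 80257545) encodes the transcription factor at the centre of the pathway. Its intensity was 553.0, 859.0, 1022 and 851.9 with EE2 at 10 ppm for 7 d, against a lowest of 323.5, a median of 591.8 and a highest of 769.7 in 6 feed controls. With EE2, 3 arrays were above every control and 1 was inside their range. The log2 change of 0.51 (SE 0.19) had an adjusted p of 0.0319, which became 0.142 without the feed control array of 323.5 (replicate 2) and 0.158 without the EE2 array of 1022 (replicate 3). The adjusted p also rose above 0.05 without EE2 replicate 2 or 4 or feed control replicate 1, in the fit of only these groups (0.169), with the sample number as a random block (0.0685) and with arrays of 1 number averaged (0.0813). The control of 323.5 shares its number with feed control replicate 6. At 28 d the change was -0.09 (SE 0.19, adjusted p = 0.781). With PRED at 5 ppm the change was 0.44 (SE 0.19, adjusted p = 0.339).

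Atf3 (chromosome 1, 191170296 to 191183333), a stress-induced repressor of transcription, was near background where EE2 was not given. It had 134.1, 125.3, 147.1 and 99.0 with EE2 at 1 ppm, 120.2, 144.6, 107.7 and 128.8 at 2.5 ppm, 184.2, 131.8, 135.8 and 166.2 at 5 ppm. The top dose of 10 ppm gave 135.2, 158.4, 179.7 and 144.6. The 6 feed controls ran from 97.5 through a median of 100.6 to 111.2. The lowest dose groups had 1 array each within the control range, and at 5 and 10 ppm all arrays were above it. The changes were 0.26 and 0.26 (SE 0.09, adjusted p = 0.0349 and 0.0366), then 0.52 and 0.53 (SE 0.09, adjusted p = 4.85e-06 and 2.66e-06). The calls at the lower doses were close to the threshold. With no filter on low genes the adjusted p was 0.052 and 0.0549, with only the groups compared it was 0.115 at 1 ppm, and with the chip as a fixed block 0.0726 at 2.5 ppm. Leaving out any 1 of feed control replicates 1 to 4 took the adjusted p above 0.05 at both doses, as did leaving out EE2 replicate 1, 2 or 3 at 1 ppm (up to 0.17) and EE2 replicate 2 or 4 at 2.5 ppm (up to 0.213). At 28 d the EE2 arrays had 114.0, 131.1, 149.4 and 226.9, all above the 6 feed controls (102.0 to 110.6), a change of 0.44 (SE 0.09, adjusted p = 6.2e-05). Intensities so close to background understate a fold, because no background was subtracted.

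Ddit3 (chromosome 10, 127290793 to 127296291) encodes CHOP, a factor that promotes cell death under lasting ER stress. It did not pass the test in any comparison. With EE2 at 10 ppm it had 141.8, 270.0, 125.9 and 121.3 at 7 d, against 136.3, 152.1 and 172.6 as the lowest, median and highest of the feed controls. Of the EE2 arrays 1 was well above the controls and 2 were below them, and the change was 0.03 (95% interval -0.28 to 0.33). At 28 d it was -0.18 (95% interval -0.48 to 0.12).

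Asns (chromosome 6, 7675165 to 7693209) encodes asparagine synthetase, which makes asparagine from aspartate. After 28 d it rose with both feed compounds. With EE2 it had 356.6, 501.2, 362.5 and 462.8, and with PRED 355.6, 323.3, 301.8 and 247.8, against a lowest of 104.8, a median of 117.5 and a highest of 125.4 in 6 feed controls. The lowest treated array was thus well above the highest control. The array called Asns detected on none of these controls, so the changes are bounds, at least 3.29-fold higher with EE2 (log2 1.72, SE 0.24, adjusted p = 3.13e-08) and at least 2.44-fold higher with PRED (1.29, SE 0.24, adjusted p = 6.12e-05). Asns was called detected on 4 of 4 EE2 arrays but on only 2 of 4 PRED arrays. The brightest PRED array, 355.6, was among those called undetected. The PRED arrays of 323.3 and 247.8 carry the same sample number. Within the chips that held both groups the EE2 difference was 1.43 to 1.93.

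At 7 d, Asns passed the test only with EE2 at 5 ppm, where the arrays had 342.8, 261.2, 292.4 and 540.2, all above the feed controls (122.1, 152.1 and 231.1 as lowest, median and highest). The change was 1.02 (SE 0.24, adjusted p = 0.000725). At 2.5 ppm it was 0.65 (SE 0.24, adjusted p = 0.054) and at 10 ppm 0.57 (SE 0.24, adjusted p = 0.0551), each with 3 of 4 arrays above the controls. Both passed the test when feed control replicate 1 or 2 was left out (adjusted p between 0.0309 and 0.0375), and at 2.5 ppm also without EE2 replicate 4 (0.034). With the sample number as a random block both passed as well (0.0486 and 0.0474). With PRED at 25 ppm the arrays had 327.8, 151.8, 221.3 and 167.4, overlapping the controls, and the change was 0.33 (SE 0.24, adjusted p = 0.461). The EE2 change at 28 d exceeded that at 7 d by 1.15 (SE 0.34, adjusted p = 0.0476), beside 1.36% of all genes with a positive and 1.2% with a negative difference. That call was lost without any 1 of 14 arrays of 20 (EE2 7 d replicates 1, 3 and 4, EE2 28 d replicates 1, 2 and 4, feed control 7 d replicates 1, 2, 3 and 6, and feed control 28 d replicates 1, 3, 5 and 6; adjusted p up to 0.115), with the sample number as a random block (0.124), with arrays of 1 number averaged (0.235) and with no filter on low genes (0.0742). The feed controls themselves were 0.44 lower at 28 d than at 7 d (adjusted p = 0.285). For PRED the difference between durations was 0.96 (SE 0.34, adjusted p = 0.107, or 0.0405 without the 7 d array of 327.8), and limma called none of the 10 genes there, beside 0.907% of all genes with a positive and 0.511% with a negative difference. For A4 it called none either, none had an unadjusted p under 0.05, and 0.00881% of all genes had a negative difference. The genes most like Asns over the group means were Nt5c3b, Plpp2 and Arid3a (r of 0.94, 0.927 and 0.923).

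Trib3 (chromosome 2, 152337425 to 152344060) encodes a pseudokinase that binds AKT and dampens ATF4 signalling. Its intensities with EE2 were 303.1, 379.0, 133.1 and 306.8 at 1 ppm, 473.7, 176.6, 423.8 and 463.0 at 2.5 ppm, 268.6, 471.5, 167.9 and 355.0 at 5 ppm. The top dose of 10 ppm gave 181.2, 350.3, 272.6 and 191.5. The 6 feed controls ran from 123.2 through a median of 125.6 to 149.1. The arrays of a dose were widely spread, and at 1 ppm 1 of them lay among the controls. The changes were 0.93 (adjusted p = 0.000396), 1.35 (2.14e-07), 1.09 (1.15e-05) and 0.80 (0.000678), each with SE 0.19. The largest of these was at 2.5 ppm, and the difference between 10 and 1 ppm was -0.12 (95% interval -0.54 to 0.30, adjusted p = 0.797). At 28 d the EE2 arrays had 170.3, 201.5, 170.2 and 250.4, above the controls (119.8 to 158.7), but the change of 0.45 (SE 0.19) missed the threshold (adjusted p = 0.0692).

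Chac1 (chromosome 2, 119351242 to 119354326) encodes an enzyme that degrades glutathione. It passed the test only with EE2 at 28 d, where the arrays had 939.3, 1553, 1355 and 1271, against 183.0, 279.7 and 518.3 as the lowest, median and highest of 6 feed controls. The groups did not overlap, and the change was 2.03 (SE 0.41, adjusted p = 6.92e-05). With PRED at 28 d it had 981.7, 446.4, 555.1 and 897.6, with 1 array among the controls and 3 above them, and the change was 1.16 (SE 0.41, adjusted p = 0.0561). Without PRED replicate 2 or feed control replicate 1 or 2 it passed (adjusted p = 0.0453, 0.0384 and 0.0349). At 7 d it was spread widely, with 1715, 452.9, 1065 and 376.4 at EE2 10 ppm and 307.8 to 856.4 in feed controls, a change of 0.46 that did not pass. The difference between durations, 1.57 (SE 0.58), did not pass either (adjusted p = 0.134), and became 0.0422 without the EE2 7 d array of 1715. In feed controls Chac1 was 0.84 lower at 28 d than at 7 d (SE 0.36, adjusted p = 0.23).

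**Figure D4:**
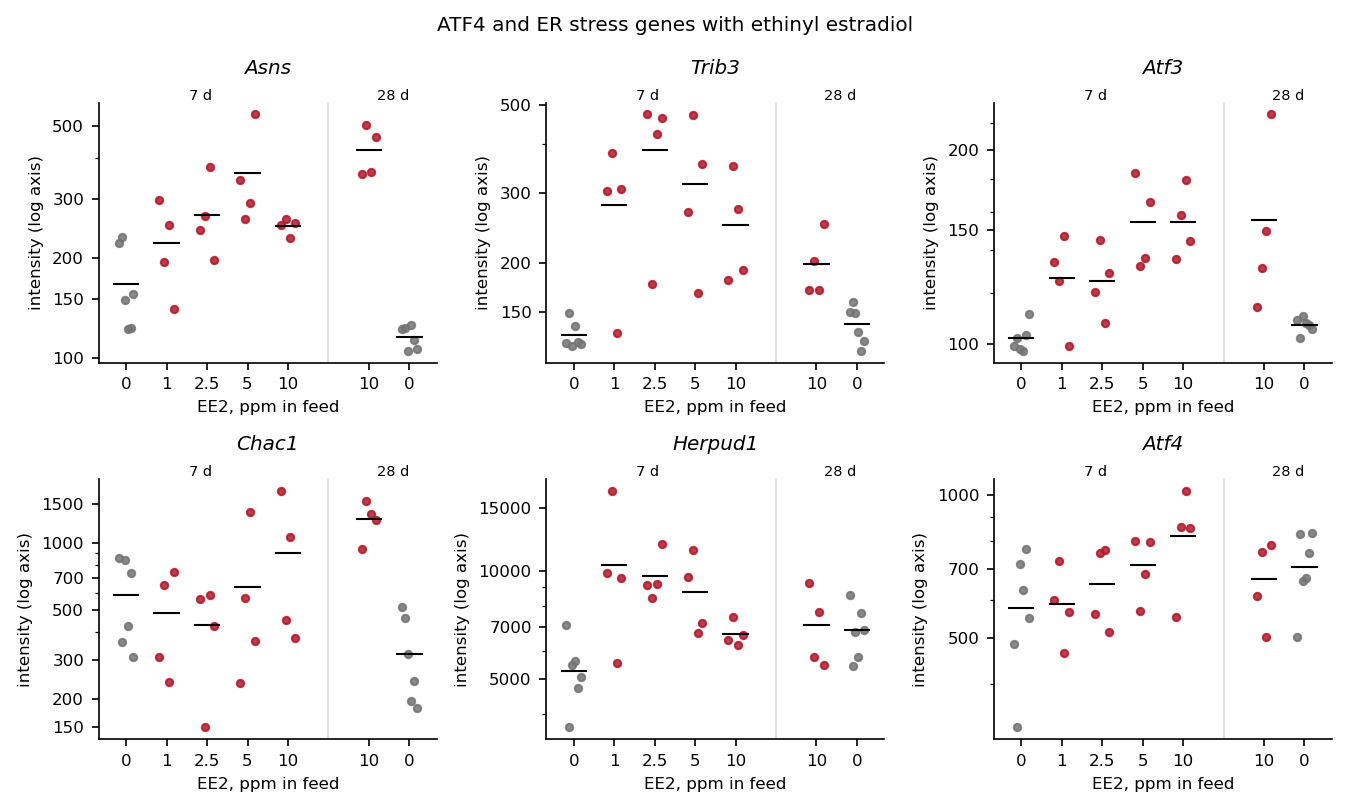
Intensity on a log axis of 6 genes on every EE2 (red) and feed control (grey) array, by dose in ppm at 7 d and at 28 d, with bars for group means. Asns and Chac1 stand clear of their controls at 28 d, Trib3 and Herpud1 are highest at the lower EE2 doses, and Atf3 exceeds its controls on every array at 5 and 10 ppm.

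Herpud1 (chromosome 8, 94386429 to 94395371) encodes a membrane protein that helps to degrade misfolded ER proteins. It had 9847, 16704, 5539 and 9587 with EE2 at 1 ppm, 9152, 8411, 9182 and 11910 at 2.5 ppm, 9654, 11438, 6744 and 7190 at 5 ppm. The top dose of 10 ppm gave 6439, 7428, 6235 and 6624. The 6 feed controls ran from 3674 through a median of 5270 to 7057. The arrays at 2.5 ppm were all above the controls, while those at 1 and 5 ppm overlapped them by 1 array and at 10 ppm by 3. The changes were 0.90, 0.89 and 0.73 at the 3 lower doses (SE 0.24, adjusted p = 0.00612, 0.00556 and 0.0178) and 0.37 at 10 ppm, which did not pass. The call at 1 ppm was lost without the array of 16704 (replicate 2; 0.64, adjusted p = 0.081). The call at 5 ppm was lost without EE2 replicate 1 or 2 or feed control replicate 2 (adjusted p up to 0.0845). Whether the level fell between the lowest and the highest dose was not settled, with a difference of -0.54 (SE 0.26, adjusted p = 0.189). That difference became -0.80 (adjusted p = 0.0269) without the EE2 1 ppm array of 5539 (replicate 3).

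At 28 d Herpud1 had 9288, 5770, 7690 and 5491 with EE2, within and just above the control range of 5443 to 8563, and the change was 0.03 (SE 0.24, adjusted p = 0.946). With PRED at 25 ppm for 7 d it had 8062, 3272, 9048 and 3338, a split of 2 high and 2 low arrays. The low arrays were those with Fgf21 at 1688 and 1384, and the high ones those with 579.4 and 413.5, which was noticed after the values were seen. The 2 low arrays carry the same sample number.

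Hspa5 (chromosome 2, 34772090 to 34776529) encodes BiP, the main ER chaperone. Its entry read between 101.8 and 248.1 over all 80 arrays, little above background, so that changes of this gene could hardly be measured here. With EE2 at 1 ppm it had 248.1, 175.2, 127.4 and 127.8, against 101.8, 128.3 and 162.7 as the lowest, median and highest of 6 feed controls. Of these EE2 arrays 2 were above the controls, and the change of 0.27 (SE 0.13) did not pass (adjusted p = 0.179). At 10 ppm it was 0.01 (95% interval -0.26 to 0.28). The genes most like it were Pck1, Magohb and Slc38a2 (r of 0.803, 0.772 and 0.749), and Magohb was itself near background.

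Across the 4 EE2 doses, a trend per dose step was called for Gdf15 (0.86), Asns (0.18), Trib3 (0.18), Atf4 (0.13) and Atf3 (0.13), which is 5 of 10 genes beside 18.7% of all genes rising and 15.2% falling. The Asns trend was lost with the chip as a fixed block (adjusted p = 0.0526). The Atf4 trend was lost without EE2 10 ppm replicate 3 (adjusted p = 0.0794) or without feed control 7 d replicate 2 (0.0656). With only the groups compared, the trends of Trib3 (adjusted p = 0.074) and Atf4 (0.0634) were lost. Since Gdf15 and Trib3 had most of their change at 1 ppm, a trend over 5 points that include the control does not show that the higher doses differ from the lower. Between 10 and 1 ppm limma called none of the 10 genes, beside 6.48% of all genes higher and 4.26% lower at 10 ppm, and 4 had an unadjusted p under 0.05. Leaving out EE2 1 ppm replicate 3 gave 2 calls, Atf3 and Herpud1. Between PRED at 25 and 1.25 ppm limma called none of the 10, beside 1.0% of all genes higher and 0.396% lower, and 1 had an unadjusted p under 0.05. For both counts at an unadjusted p, the share of all genes at that threshold is not given, so neither has a background.

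EE2 and PRED, both steroids, were each fed at 2.5 and at 5 ppm for 7 d, and these 2 pairs were compared directly. At 2.5 ppm Gdf15 was higher with EE2 by 3.66 (SE 0.30, adjusted p = 2.22e-14), Trib3 by 1.41 (SE 0.21, adjusted p = 1.12e-06) and Herpud1 by 0.86 (SE 0.26, adjusted p = 0.0208), 3 of 10 genes beside 5.78% of all genes higher and 4.07% lower. The Herpud1 call was lost without EE2 replicate 4 or PRED replicate 4 (adjusted p up to 0.107). Asns, at 0.58 (adjusted p = 0.167), passed without PRED replicate 4 (0.0213). At 5 ppm Gdf15 was higher by 3.90 (SE 0.30), Trib3 by 1.07 (SE 0.21), Asns by 0.77 (SE 0.26) and Atf3 by 0.53 (SE 0.10), 4 of 10 beside 9.61% higher and 8.43% lower. Their adjusted p-values were 1.03e-15, 0.000111, 0.0289 and 2.63e-05. The Asns call was lost without any of 4 arrays (EE2 replicate 1 or 4, PRED replicate 1 or 3, adjusted p up to 0.198), with the chip as a fixed block (0.128) and with only the groups compared (0.289). With only the groups compared the Trib3 call was lost too (0.104). Atf3 was detected on no PRED 5 ppm array, so its difference is a bound, at least 1.44-fold. For Fgf21, Ddit3, Atf4, Hspa5 and Chac1 neither pair passed the test.

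The controls give the spread of these genes without a compound. Between gavage and feed at 7 d and at 28 d, and between 28 d and 7 d of either route, limma called none of the 10 genes. At an unadjusted p under 0.05 there were 2, Asns and Chac1, both lower at 28 d than at 7 d in feed controls. The share of all genes at that looser threshold is not given. At the stricter adjusted p under 0.05, 0.705% of all genes were higher and 0.317% lower at 28 d in that comparison. In the other 3 comparisons 0.0% of all genes were called.

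Other genes of the pathways were counted from lists made with earlier results of these data known. Of 31 tested genes of the integrated stress response other than the 10, 7 rose and 1 fell with either of the 2 lower EE2 doses, 11 rose and 1 fell with either of the 2 higher, and 10 rose and 1 fell after 28 d. The shares of all genes that rose were 6.29% and 7.58%, then 12.8% and 18.1%, and 14.8% after 28 d. The list's median log2 change was 0.12 at 10 ppm, against -0.001 over all genes. Ddit4, which restrains mTORC1 and also answers glucocorticoids and hypoxia, had 1191 ± 363.1 (SD, n = 4) with EE2 at 10 ppm for 7 d and 213.3 ± 51.2 (SD, n = 6) in feed controls, a rise of 2.37 (SE 0.35, adjusted p = 1.49e-07). The glycyl-tRNA synthetase gene Gars rose by 1.09 (SE 0.12) and the alanine aminotransferase gene Gpt2 by 1.01 (SE 0.20). At 28 d, Ddit4 rose by 2.19 (SE 0.35), the secreted stanniocalcin gene Stc2 by 1.29 (SE 0.06) and the proline synthesis gene Aldh18a1 by 1.26 (SE 0.14). The 1 gene that fell was Shmt2, a mitochondrial enzyme of the one-carbon cycle, by 0.80 (SE 0.10) at 10 ppm and 7 d and by 1.07 (SE 0.10) at 28 d.

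With PRED at 25 ppm for 7 d 1 of 31 rose (3.29% of all genes did). It was Slc6a9, a glycine transporter gene, with 873.7 ± 49.1 (SD, n = 4) against 450.8 ± 84.0 (SD, n = 6) in feed controls, a rise of 0.95 (SE 0.18, adjusted p = 0.000222). At 28 d, where 4.64% of all genes rose, 3 rose (Ddit4, Cebpb and Lars) and 1, Cars, near background, fell by 0.06. With A4, limma called none of the 31 in any comparison, and 1, 3, 0, 2 and 0 had an unadjusted p under 0.05. The share of all genes at that looser threshold is not given.

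Of 21 tested ER chaperone, folding and degradation genes other than Hspa5 and Herpud1, 2 rose with EE2 at 1 ppm, 2 at 2.5 ppm, 4 at 5 ppm, 9 at 10 ppm and 3 at 28 d, and none fell. Over all genes 6.29%, 7.58%, 12.8% and 18.1% rose at these doses and 14.8% at 28 d, so the counts at the lower doses and at 28 d are near the background. The list's median log2 change with EE2 was 0.25, 0.09, 0.27 and 0.34 at the 4 doses and 0.08 at 28 d. With PRED against the same controls it was 0.20, 0.17, 0.19 and 0.17 at 1.25, 2.5, 5 and 25 ppm, and 0.09 at 28 d. Part of the shift was thus shared by both compounds, and its source was not tested. The DnaJ co-chaperone gene Dnajb9 had 1396 ± 695.4 (SD, n = 4) with EE2 at 10 ppm for 7 d and 673.4 ± 209.2 (SD, n = 6) in feed controls, a rise of 1.02 (SE 0.34, adjusted p = 0.0144). The protein disulfide isomerase gene Pdia4 rose by 0.82 (SE 0.29, adjusted p = 0.0207) and the degradation factor gene Selenos by 0.66 (SE 0.16, adjusted p = 0.000751). With PRED at 25 ppm 1 rose at 7 d, the disulfide oxidase gene Ero1b, by 0.82 (SE 0.18, adjusted p = 0.00174). At 28 d 2 rose, Ero1b and Dnajc3. Dnajc3, a co-chaperone that inhibits eIF2 kinases, rose by 0.75 (SE 0.20, adjusted p = 0.00692). With A4 limma called none of 21, and none had an unadjusted p under 0.05.

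A list of sensor, kinase and phosphatase genes, which also held the translation initiation factor gene Eif2a, had 7 tested genes. Of these, 4 rose and 1 fell with EE2 at 10 ppm for 7 d, and 2 rose and 1 fell at 28 d. Over all genes 18.1% and 14.8% rose. Eif2a rose by 0.64 (SE 0.11, adjusted p = 5.64e-06) at 7 d and by 0.30 (SE 0.11, adjusted p = 0.032) at 28 d. Atf6b, a relative of the ER sensor ATF6, rose by 0.57 (SE 0.15, adjusted p = 0.00172) at 7 d. Ppp1r15b, which directs a phosphatase to eIF2, rose by 0.34 (SE 0.08, adjusted p = 0.000361). Eif2ak1, the heme-regulated eIF2 kinase, fell by 0.52 (SE 0.09, adjusted p = 4.12e-06) at 28 d, and Eif2ak2, the kinase PKR, rose by 0.41 (SE 0.16, adjusted p = 0.045). Of 7 listed genes for receptors of FGF21 and GDF15, 4 were tested, namely Fgfr2, Fgfr3, Fgfr4 and Klb, and none of these is a GDF15 receptor gene. Klb, the co-receptor of FGF21, rose with EE2 at 1 ppm (0.61, adjusted p = 0.0167), 2.5 ppm (0.88, adjusted p = 0.000258) and 5 ppm (0.69, adjusted p = 0.0031). It had 372.0 ± 70.7 (SD, n = 4) at 2.5 ppm and 195.2 ± 41.8 (SD, n = 6) in feed controls, and did not pass at 10 ppm (0.44, adjusted p = 0.0559). Fgfr2, near background, fell by 0.08 at 10 ppm and 7 d (adjusted p = 0.0124). Fgfr4, also near background, had 99.9 ± 3.7 (SD) with EE2 at 28 d and 115.1 ± 5.0 (SD) in feed controls. It fell and was detected on no EE2 array, at least 1.11-fold lower (adjusted p = 0.000843).

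Gdf15 is also a target of p53, so 11 tested p53 targets were counted. With EE2 at 10 ppm 2 rose and 3 fell at 7 d, and 1 rose and 3 fell at 28 d. Over all genes 18.1% rose and 15.2% fell at 7 d, and 14.8% and 13.8% at 28 d, so the rises are at or below the background. Cdkn1a, the cell cycle inhibitor p21, had 471.5 ± 125.4 (SD, n = 4) with EE2 at 7 d and 214.2 ± 35.8 (SD, n = 6) in feed controls, a rise of 1.05 (SE 0.27, adjusted p = 0.00186). With EE2 at 28 d it rose by 1.87 (SE 0.27, adjusted p = 1.33e-07). It also rose with PRED at 25 ppm, by 1.25 (SE 0.27, adjusted p = 0.00161) at 7 d and 1.75 (SE 0.27) at 28 d. Ccng1 fell by 0.37 (SE 0.07) with EE2 and by 0.30 (SE 0.07) with PRED at 7 d. With EE2 at 28 d, Bbc3 fell by 0.50 (SE 0.11), Ei24 by 0.42 (SE 0.14) and Ccng1 by 0.25 (SE 0.07). The part of p53 in the change of Gdf15 was not tested.

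Markers of other cell types moved with EE2. Of 11 tested macrophage and Kupffer cell markers, 10 rose at 10 ppm for 7 d (18.1% of all genes did) and 10 at 28 d (14.8%). At 1, 2.5 and 5 ppm 1, 0 and 2 rose, beside 6.29%, 7.58% and 12.8% of all genes. The summed intensity of 12 markers ran from 5692 through a median of 19870 to 24770 with EE2 at 10 ppm for 7 d, against 4708, 6082 and 6718 in feed controls. At 28 d it ran from 15940 through 17080 to 18190 with EE2, against 3651, 4189 and 5939 in feed controls. The marker Cd5l was detected on no array of these groups. With PRED at 25 ppm none of the 11 was called. At the lower EE2 doses single arrays were high as well, with 3323, 7363 and 30130 as the lowest, median and highest at 1 ppm. At 2.5 ppm these were 2727, 6714 and 16890. At 5 ppm they were 3948, 5139 and 28840.

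Erythroid markers had a lower median sum with EE2 than in feed controls at every dose. The summed intensity of 5 markers had medians of 4685, 5001, 3290 and 6548 with EE2 at 1, 2.5, 5 and 10 ppm for 7 d, against 14680 in feed controls, and 3668 with EE2 at 28 d, against 8086 in feed controls. The groups overlapped at 1 ppm (2946 to 18390) and at 10 ppm (1343 to 10820), where feed controls ran from 10080 to 16340. Of 5 tested markers, 1, 2, 2 and 2 fell at the 4 doses and 1 at 28 d. The shares of all genes that fell were 7.06%, 7.02%, 11.6% and 15.2%, and 13.8% at 28 d. Alas2, the erythroid enzyme that begins heme synthesis, had 379.3 ± 296.0 (SD, n = 4) with EE2 at 1 ppm and 2198 ± 313.6 (SD, n = 6) in feed controls, a change of -2.72 (SE 0.22, adjusted p = 4.01e-15). The part of macrophages and erythroid cells in the changes of the 10 genes was not tested.

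Within groups, the 10 genes did not vary as 1 block. Over the deviations of 80 arrays from their group means, Gdf15 and Atf3 had a Pearson r of 0.42, Atf4 and Hspa5 of 0.35, Hspa5 and Herpud1 of 0.34, Gdf15 and Chac1 of -0.37, and Fgf21 and Herpud1 of -0.28, given as a description since arrays share chips and possibly animals.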

How the data were processed

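Liver RNA from 80 samples was hybridised to Illumina bead arrays. The authors deposited 1 normalized intensity and 1 detection p-value per entry and array. GenomeStudio is named per the submitters' processing notes, and no source used here gives the normalization method. Groups came from the sample titles, and replicates were numbered in accession order. Intensities were converted to log2(intensity + 16), which understates folds of dim genes. Of the deposited entries, 11352 with a detection p-value under 0.05 on at least 4 arrays were tested, leaving out 8 array controls. One limma model (limma 3.58.1, R 4.3.3) over 19 groups gave 29 comparisons, with Benjamini-Hochberg adjustment within each. The fit was tested on simulated data. A bound ("at least") is given for Atf3 and Fgfr4 where a group had no detected array. It covers only the undetected level, not the spread between arrays. All 10 genes passed the filter. They and the lists were chosen with earlier results of these data known. List genes named are the 3 largest rises and falls past the threshold whose groups do not overlap, and others named were chosen after their values were seen. Symbols were updated through RefSeq for 2679 entries and not found for 1152, and promoter sequences are RefSeq's (GRCm38.p6). Alternatives changed the pseudocount, filter, centring, normalization, chip or sample-number block, prior, groups fitted and single arrays. The level of 1 cell type marker is not reported here.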

Additional observations from a re-analysis of the deposited data

Results flagged for a closer look

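For 15 of 190 combinations of gene and group, 1 array lay far from the others of its group, where about 5 percent would by chance. For Gdf15, the lowest 7 d feed control was 129.91 (next 164.16), and the highest array with PRED at 5 ppm was 261.09 (next 143.33). The same PRED array (replicate 3) had Fgf21 at 2924.6 (next 452.88). For Asns, single arrays stood high with A4 at 10 mg/kg/day (253.92, next 131.62), with A4 at 50 mg/kg/day for 28 d (165.05, next 119.11) and in 7 d gavage controls (241.83, next 126.11). That gavage control array, replicate 4, was also high for Atf3 (138.44, next 100.87). For Trib3, 1 array with EE2 at 2.5 ppm was low (176.65, next 423.83) and 1 with A4 at 2 mg/kg/day was high (160.26, next 121.17). For Ddit3, single arrays were high with EE2 at 5 ppm (276.39, next 156.68), at 10 ppm for 7 d (270.04, next 141.84) and at 10 ppm for 28 d (177.5, next 131.18). Hspa5 was high on 1 array with EE2 for 28 d (171.63, next 137.13), Atf4 on 1 with A4 at 10 mg/kg/day (877.16, next 611.5) and Chac1 on 1 with A4 at 20 mg/kg/day (520.79, next 291.9).

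The EE2 change of Asns differed between durations, by 1.15 (28 d minus 7 d, adjusted p = 0.0476 in limma), a call lost with the sample number as a random block (0.124), with arrays of 1 number averaged (0.235) and with no filter (0.0742). At 2.5 ppm, EE2 exceeded PRED by 3.66 for Gdf15, 1.41 for Trib3 and 0.86 for Herpud1. At 5 ppm it did so by 3.90 for Gdf15, 1.07 for Trib3, 0.771 for Asns and 0.534 for Atf3.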

How the results depend on the processing

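Under 12 other settings, 3450 of 3480 values of single genes kept their side of the threshold, 17 fell short of it and 13 passed it. Leaving out 1 array kept 3135 of 3200, with 44 lost and 21 gained. None that passed in the main or the other fit reversed direction, and direction was not compared where neither passed. Counts of the 10 genes called moved by over 1.5 times as follows, and the cause was not tested. The PRED trend gave 1 call, against 0, with a pseudocount of 64, with genes detected on every array of a group, and with the chip as a fixed or random block. PRED at 25 ppm for 7 d gave 1, against 0, with the chip as a fixed block. PRED at 28 d gave 2, against 1, with genes detected on every array of a group and when only the groups compared were fitted. The EE2 difference between durations gave 0, against 1, with no filter, with the sample number as a random block and with arrays of one sample number averaged. When only the groups compared were fitted, which leaves fewer arrays, EE2 at 1 ppm gave 2 calls (against 4), the EE2 trend 3 (against 5) and EE2 against PRED at 5 ppm 2 (against 4). Without 1 array, counts ranged from 2 to 4 for EE2 at 1 ppm, 3 to 4 at 2.5 ppm, 4 to 5 at 5 ppm, 3 to 4 at 10 ppm, 4 to 4 at 28 d and 4 to 5 for the EE2 trend. They ranged from 0 to 2 for EE2 at 10 against 1 ppm, 0 to 1 for the EE2 and PRED differences between durations and the PRED trend, and 1 to 2 for PRED at 28 d. EE2 against PRED ranged from 2 to 3 at 2.5 ppm and 3 to 4 at 5 ppm, and the other comparisons stayed at 0. No paired analysis was possible because the labels number no replicates, and only 1 of the sample numbers in the column names occurs in 2 groups (feed controls at 7 d and 28 d). Dim entries (Hspa5, Atf3, Ddit3) limit what could be seen.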
